A study of Begonia x semperflorens-cultorum with 3 samples.

Results

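The transcripts described here are the 114 assembled genes whose level in begonia leaves was at least 8-fold lower at low temperature than in the control, up to a limit on their mean count. They were chosen from 74779 assembled genes by their own counts in the 2 libraries. A member had an expected count (an estimate of its reads) of at least 10 in the low-temperature library and at least 50 in the control library. Its fold, taken on counts scaled to a common library size with 1 added, was 1/8 or less, and its mean scaled count was below 10000. This last limit is on counts and not on the level per length. Of the 16104 genes that met both count minimums and the limit on the mean, the 114 members were 0.708%; at any mean, 124 of 16274 genes (0.762%) were at least 8-fold lower. Because the fold chose the members, all folds and levels below are a description and carry no test.

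The low-temperature library (LT) was made from leaves of Begonia x semperflorens-cultorum, cultivar Super Olympia, a garden bedding plant, grown at 15/5 °C, with 300 μmol m-2 s-1 of light. The control library (CK) came from leaves of the same cultivar grown at 25/15 °C, light being the same. Poly-A RNA was sequenced, and in each condition 4 parallel samples had been mixed into 1 library. The spread between plants was thus not measured, no p-value can be given, and a library effect cannot be told apart from the temperature. The remaining library of the series, grown under high light, was quantified on another assembly and was not compared: under the gene numbers of 43 single-isoform members it also listed a single isoform, and in 0 of these 43 with the same length.

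The level of an mRNA in a leaf depends on how fast it is made and how fast it is broken down. Plants kept in the cold are known to alter many transcripts, to raise genes of cold protection and often of the red anthocyanin pigments, and to lower many genes of growth. An assembled gene is a sequence, or a group of alternative sequences (isoforms), joined from overlapping reads without a genome. The files pair no assembled gene with a name or a sequence, so no role can be given to a member, leaf markers could not be looked up, and the members are described by length, isoforms and level. Fewer cells of a type and less RNA per cell cannot be told apart in whole leaves.

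As a group, the members made up a far smaller share of the counts at low temperature than in the control, which the rule requires because each was at least 8-fold lower. They held 15039 of the 18836786 counts in LT, or 0.0798% (exact Clopper-Pearson 95% interval 0.0786 to 0.0811%). In CK they held 168311 of 17223244 counts, or 0.977% (0.973 to 0.982%). Both intervals cover counting error only. In TPM, which corrects for gene length and gives every library an equal sum, the members summed to 1347 in LT and to 16225 in CK.

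The levels of the members spanned a wide range in both libraries. In LT their TPM ran from 0.33 to 113.1, with a median of 4.03. In CK it ran from 4.36 to 1515, with a median of 43.0. In LT 82 members were below 10 TPM and 3 were at 100 TPM or more, against 8 and 37 members in CK. The median CK level of the members lay above that of all genes tested, which was 19.4 TPM in CK, while in LT it lay below the 21.0 TPM of all genes tested. Ranked by TPM among all assembled genes, 0 members were among the 1000 highest in LT, whereas 29 were in CK, 3 of them among the 100 highest. The rule bears on these contrasts between LT and CK, since a member needs at least 76 counts in CK and an 8-fold lower level in LT.

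**Figure D1:**
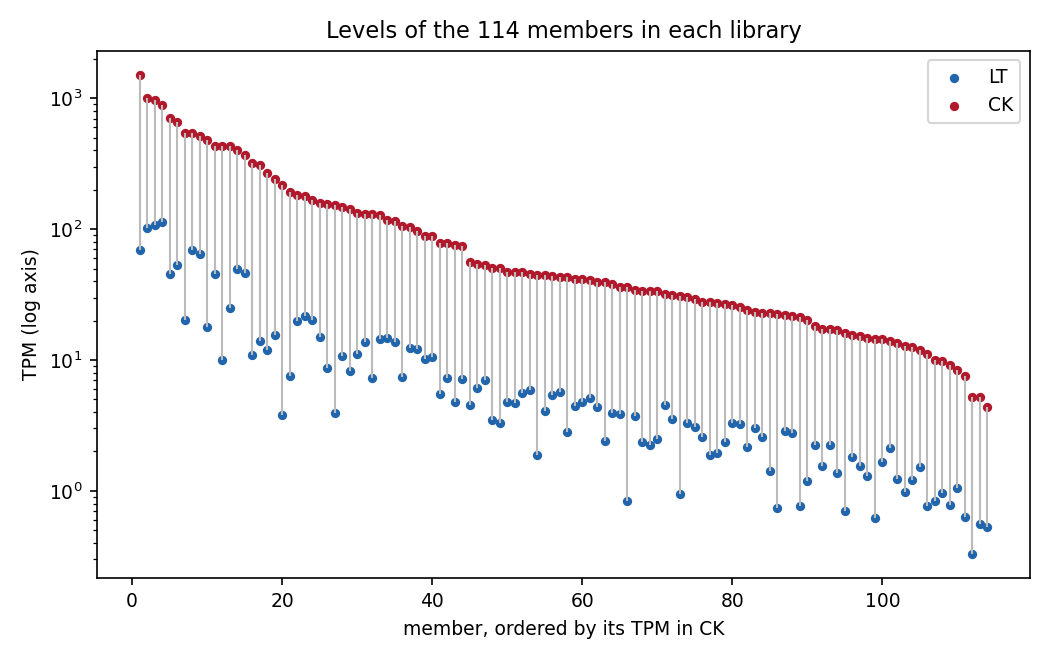
TPM (log axis) of each of the 114 members, ordered by the level in CK; blue points are LT, red points are CK, and a grey line joins the values of 1 gene, with 1 library per condition. The LT points run from 0.33 to 113.1 TPM and the CK points from 4.36 to 1515 TPM, and each LT point lies below its CK point because the rule chose such genes.

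A few abundant members carried much of the sum. The 5 with the highest CK counts held 37.5% of the members' counts in LT and 37.6% of those in CK. The 9 most abundant members made up the larger part of the CK counts, and the 10 most abundant held 55.1% of the members' counts in LT and 52.7% in CK. The share of these genes within the group was therefore close in both libraries.

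The folds were mostly near the limit. The median member was 11.0-fold lower in LT, a log2 fold of -3.46, beside a median log2 fold of -0.06 over the 16104 genes tested. In 44 members the drop was 8-fold to below 10-fold, in 42 it was 10-fold to below 16-fold, and in 24 it was 16-fold to below 32-fold. Only 4 members were 32-fold lower or more. The 24 members of the 16-fold class had a median CK level of 136.8 TPM, against 33.8 TPM in the class from 10-fold and 41.4 TPM in the class from 8-fold. The minimum of 10 counts in LT bears on this order, since a gene with few CK counts cannot show a large fold above that minimum.

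**Figure D2:**
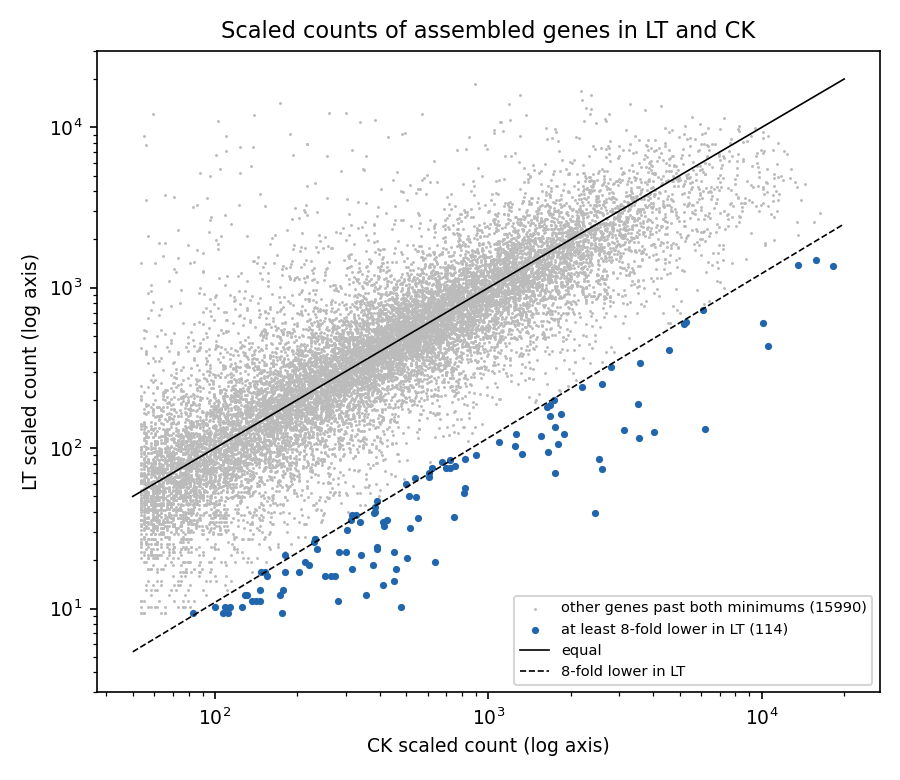
Scaled counts of the 16104 tested genes, CK on the horizontal and LT on the vertical log axis; grey points are the 15990 other genes, blue points the 114 members, the solid line marks equal counts and the dashed line an 8-fold lower count in LT. The members form the sparse lower edge of the cloud, and at low CK counts they are bounded from below by the minimum of 10 LT counts.

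The lowest fold belonged to c26184.graph_c0, a single-isoform gene of 811 bases. It had 42 counts in LT against 2278 in CK, or 3.78 TPM in LT and 217.1 TPM in CK, and was 61.0-fold lower. The next lowest was a single-isoform gene of 1005 bases with 141 counts in LT against 5772 in CK, or 9.96 and 433.7 TPM. It was 46.8-fold lower. In both genes the counting interval stayed far beyond the limit: the upper bounds of the log2 fold were -5.53 and -5.32.

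Next in order was a gene of 2 isoforms and about 940 bases with only 11 counts in LT against 446 in CK. Its log2 fold of -5.41 had a counting interval from -6.56 to -4.69, so that its place in the order is loose. The fourth, with 4 isoforms, had 79 counts in LT against 2426 in CK and was 34.9-fold lower. The fifth, a single-isoform gene of 889 bases, had 135 counts in LT against 3748 in CK, or 10.9 and 322.3 TPM, and was 31.7-fold lower. Among these 5 genes, the CK levels ranged from 36.1 to 433.7 TPM.

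The highest CK level among the members was that of c34920.graph_c0, a gene of 2 isoforms and about 531 bases in CK. It had 467 counts in LT against 9757 in CK, or 68.9 TPM in LT and 1515 TPM in CK, and a log2 fold of -4.59 (95% counting interval -4.73 to -4.46). The second, a single-isoform gene of 1092 bases, had 1590 counts in LT against 14602 in CK, or 102.4 and 1002 TPM. It was 10.6-fold lower and so still lay above 100 TPM in LT.

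A single-isoform gene of 977 bases came next, with 107.6 TPM in LT and 975.0 TPM in CK, and was 9.81-fold lower. The fourth, with 2 isoforms, had 440 counts in LT against 4253 in CK, or 113.1 and 882.2 TPM, the highest LT level of any member. The fifth, a single-isoform gene of 1003 bases, had 45.8 TPM in LT and 707.1 TPM in CK and was 16.7-fold lower. All 5 of these abundant transcripts had log2 folds between -4.59 and -3.29, and the 5 lowest folds of the group were found elsewhere.

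Counting error alone did not resolve every member. In 61 members the whole 95% counting interval of the fold (exact, conditional on the 2 counts) lay beyond 8-fold, and in 53 it crossed the limit. The weakest upper bound among the members was a 4.57-fold lower level in LT, in the member with 10 counts in LT against 77 in CK. The rule sets a floor near this value, since no gene with fewer than 10 LT or 76 CK counts can pass it. The same counts chose the members, so these intervals are no test of them. Conversely, 149 tested genes outside the group had an interval that reached 8-fold. In LT, 83 members had fewer than 100 counts and 13 had 10 to 12.

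The edges of the group were as follows. The 2 members nearest to the fold limit were 8.04-fold and 8.10-fold lower, with 23 counts in LT against 167 in CK, and with 41 in LT and 295 in CK. Just outside lay a gene 7.99-fold lower, with 243 counts in LT against 1692 in CK, and one 7.95-fold lower, with 14 in LT and 103 in CK. Neighbours on the 2 sides of the limit thus differed by less than their counting error.

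At the LT minimum, the 2 members with the lowest folds were of a single isoform: one of 639 bases had 10 counts in LT against 163 in CK, and one of 346 bases had 10 in LT and 104 in CK. Just below that minimum, the 2 genes of lowest fold with 9 counts in LT had 207 and 156 in CK. The minimum of 50 counts in CK left out no gene, because the other limits need at least 76 counts there; the lowest members had 77 and 93 CK counts, beside 10 and 11 in LT. At the limit on the mean, the highest member had 1465 counts in LT against 16903 in CK, and the nearest gene beyond it that was 8-fold lower had 2210 in LT and 17857 in CK.

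Without the minimum in LT, and at any mean, 507 genes with at least 50 CK counts were 8-fold lower or more, which is 3.04% of the 16665 genes with that CK count. Of the 507, 302 were at 0 in LT, 81 had 1 to 9 counts there, and 10 lay above the limit on the mean. These 10 genes were 8.46-fold to 17.5-fold lower and alone held 0.158% of the counts in LT and 1.81% in CK, more than the 114 members together in either library. The members are therefore the middle of a wider set, between genes with fewer than 10 LT counts and the few with the highest counts. The 383 genes with fewer than 10 LT counts had a median of only 93 counts in CK, so depth bears on this division.

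The rule did not use length or isoform number. The members were shorter and had fewer isoforms than the genes tested, which is given as a description with no test. Their median length in CK was 862 bases, against 1346 bases for all 16104 genes tested. A single isoform was listed for 74 members, or 64.9%, against 38.4% of all genes tested. A list of 10 or more isoforms, as 14.3% of the tested genes had, was found for 1 member. These traits were not particular to the members. Of the 383 genes 8-fold lower with fewer than 10 LT counts, 68.7% had a single isoform, and their median length was 927 bases. Of the 10 genes 8-fold lower above the limit on the mean, 5 had a single isoform, and the median length was 1157.5 bases.

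The members were also shorter within classes of CK count. These classes do not equalise the level per length, since at equal counts a shorter gene has the higher TPM. Among genes with 100 to below 300 CK counts, the median length was 798 bases in the 35 members and 1127 bases in the 4685 genes tested. From 300 to below 1000 CK counts it was 853 bases in the 40 members and 1595 bases in the 5453 genes tested. With 1000 to below 3000 CK counts it was 1019 bases in the 22 members and 1855 in the 2686 tested, and with 3000 or more it was 907 in 14 members and 1789 in 666 tested. The single-isoform share of the members in these 4 classes was 57.1%, 65.0%, 72.7% and 71.4%, against 38.8%, 34.9%, 35.7% and 38.6% of the genes tested. The class of 50 to below 100 CK counts held only 3 members.

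Length and isoform number are related, so members were also counted in both at once. Among single-isoform genes the share of members was 2.21% from 200 to below 500 bases (20 of 907), 1.58% from 500 to below 1000, 0.796% from 1000 to below 2000 and 0.405% at 2000 bases or more. Among genes with several isoforms it was 0.704%, 0.738%, 0.445% and 0.0693% in the same length classes. In each of the 4 length classes the share was higher among single-isoform genes, though the shortest class with several isoforms rests on 2 members and each of the longest classes on 4 or fewer.

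**Figure D3:**
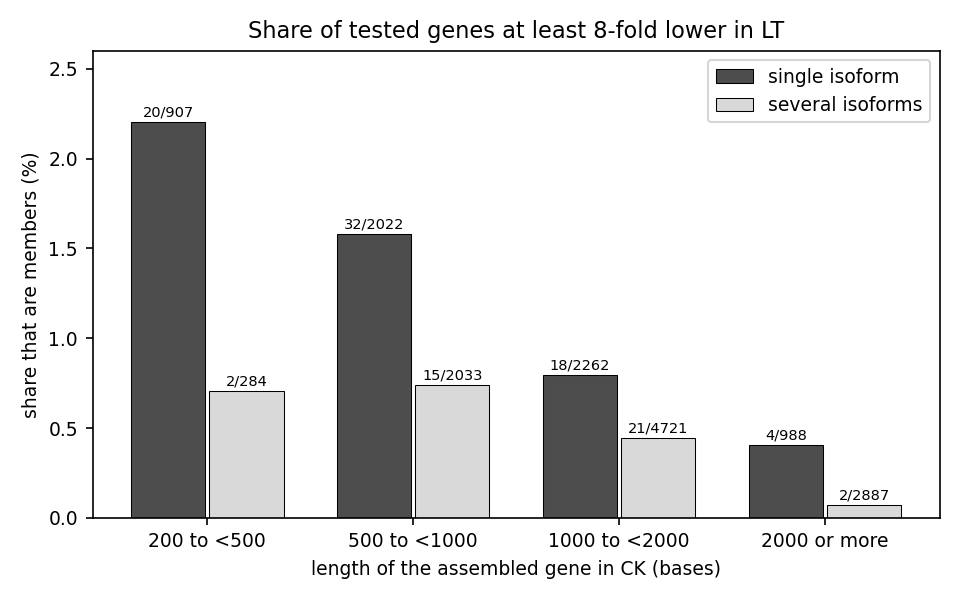
Share of tested genes that are members (percent, bars starting at 0) by length class in bases, for genes with a single isoform (dark) and several isoforms (light); the number over each bar gives members over genes tested. The share falls from 2.21% in the shortest single-isoform class to 0.0693% in the longest class with several isoforms.

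Genes higher in LT were also often of a single isoform. Under the mirrored rule, 396 of 16717 genes (2.37%) had at least 8 times the CK level in LT, with a single isoform in 61.4% and a median length of 1107 bases. Over all 16717 genes under the mirrored minimums, 39.0% had a single isoform and the median length was 1320 bases. In either direction the genes past 8-fold were thus more often of a single isoform than the genes tested with them, and the difference between the 2 directions was not tested.

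The longest members were single-isoform genes of 3066 and 2380 bases and one of about 2592 bases with 2 isoforms. The first had 110 counts in LT against 1165 in CK, or 2.37 and 27.0 TPM, and was 12.1-fold lower. The shortest, all with a single isoform, had 208, 223 and 236 bases. The one of 208 bases had 12 counts in LT against 131 in CK, that of 223 bases 42 in LT and 354 in CK, and that of 236 bases 16 in LT and 418 in CK. The last was 28.3-fold lower, and the other 2 were 11.6-fold and 9.50-fold lower, with few counts behind each.

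On the TPM scale, where 0.1 was added to each value, 92 of the 114 members were 8-fold lower. The other 22 were at most 11.1-fold lower on counts. The median log2 fold of the members was -3.36 in TPM, a shift of 0.11 from the counts, and the median of all genes tested shifted by 0.11 as well. Relative to the other genes the members therefore stood at about the same distance on both scales. The part of a gene length that is discounted for the TPM was 100.1 bases in LT and 87.4 in CK (median over genes longer than 2000 bases), so that the shortest member had an effective length of 108.1 bases in LT and 120.7 in CK.

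Gene numbers have 2 parts, and genes that share the first part are called partners in 1 component here. The files do not explain this numbering, and whether the genes of a component are related in sequence cannot be told from them. Of the 114 members, 10 (8.77%) shared the first part with another gene, against 10.2% of all genes tested, and these 10 fell into 9 components, called A to I here in order of CK counts. Their 10 partner genes outside the group are those that did not meet the rule. A partner that met it would be a member, as in component A.

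Component A held 2 members and no other gene. They were c34920.graph_c0, described above, and a gene of 2 isoforms and about 503 bases with 123 counts in LT against 3296 in CK, or 20.2 and 546.3 TPM. The second had a log2 fold of -4.94, beside a log2 fold of -4.59 for the first. Both are members, so the rule itself required each to be at least 8-fold lower in LT.

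Of the partner genes in the other components, 7 had enough counts to compare. Of these 7, 6 lay within 2-fold of CK, as did 76.8% of all genes tested, members included. The tally of partners could hold no gene that met the rule. In component B the member had 193 counts in LT against 1526 in CK, whereas its partner had 1264 in LT and 1849 in CK, a log2 fold of -0.75. In component C the member had 64 counts in LT against 463 in CK, and the partner 1245 in LT and 1274 in CK. In component D the member had 43 counts in LT against 356 in CK, and a partner of 12 isoforms had 2903 in LT and 3175 in CK.

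Component E paired a member of 1181 bases, with 38 counts in LT against 291 in CK, with a partner that had 735 in LT and 664 in CK. In component F the member had 17 counts in LT against 235 in CK, and its 2 partners had 147 and 131 in LT against 161 and 110 in CK. In components B to F, the member was at least 8-fold lower by the rule, while the partners past both minimums lay within 2-fold.

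Component G was the exception. Its member, the one nearest to the fold limit, was 8.04-fold lower, and its partner, with 47 counts in LT against 328 in CK, was 7.88-fold lower and missed the limit. The partners in H and I were under the count minimums, with 0 counts in LT against 6 in CK in component H, and with 106 in LT and 43 in CK in component I. The remaining gene of component D had 5 counts in LT against 4 in CK.

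**Figure D4:**
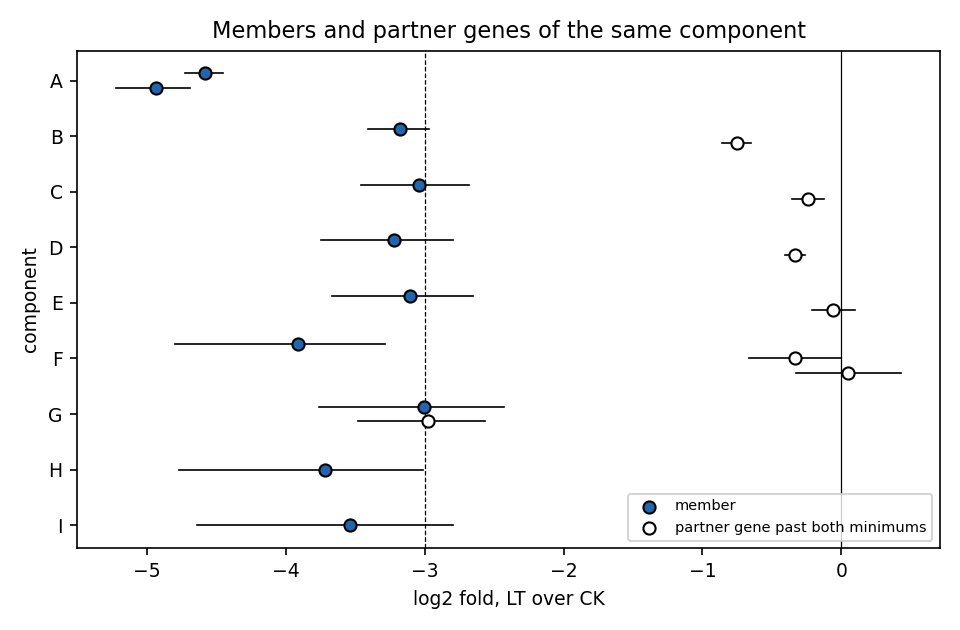
Log2 fold of LT over CK for members (filled) and for partner genes of the same component past both count minimums (open), in components A to I from top to bottom; horizontal lines are 95% counting intervals, the dashed line is the 8-fold limit and the solid line no difference. The open points of B to F lie between -0.75 and 0.05, while the partner in G lies at -2.98 beside its member.

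For the 40 members with several isoforms, the files give a length weighted by the abundance of the isoforms, which moves when the balance of isoforms differs. This length was longer in LT in 21 members and shorter in 19, and the median ratio of LT over CK was 1.0. It differed by at least 1.1-fold in 10 of the 40 (25.0%), against 11.9% of the 9925 genes with several isoforms that were tested. The share moved with depth: of the 25 such members with fewer than 50 LT counts 8 differed, against 22.0% of the 427 genes tested with as few, and of the 15 members with 50 LT counts or more 2 differed, against 11.5% of the 9498 genes tested.

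Of these 2, one was the member with the highest LT level, with 440 counts in LT against 4253 in CK. Its weighted length was 348.5 bases in LT and 419.9 in CK. It was 11.1-fold lower on counts, and the TPM, which takes the shorter length into account, gave a log2 fold of -2.96 in place of -3.47. The other, the 4-isoform member that was 34.9-fold lower, with 79 LT counts, differed the other way, with 1390 bases in LT and 1178 in CK.

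The 3 largest differences rested on very few reads. A member of 4 isoforms had a length of 612.3 bases in LT, from 17 counts, and 797.8 in CK, from 144. A member of 2 isoforms had 2410 bases in LT, from 12 counts, and 1881 in CK, from 136. The member with the most isoforms, 10, had 880.6 bases in LT, from 13 counts, and 1098 in CK, from 122.

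**Figure D5:**
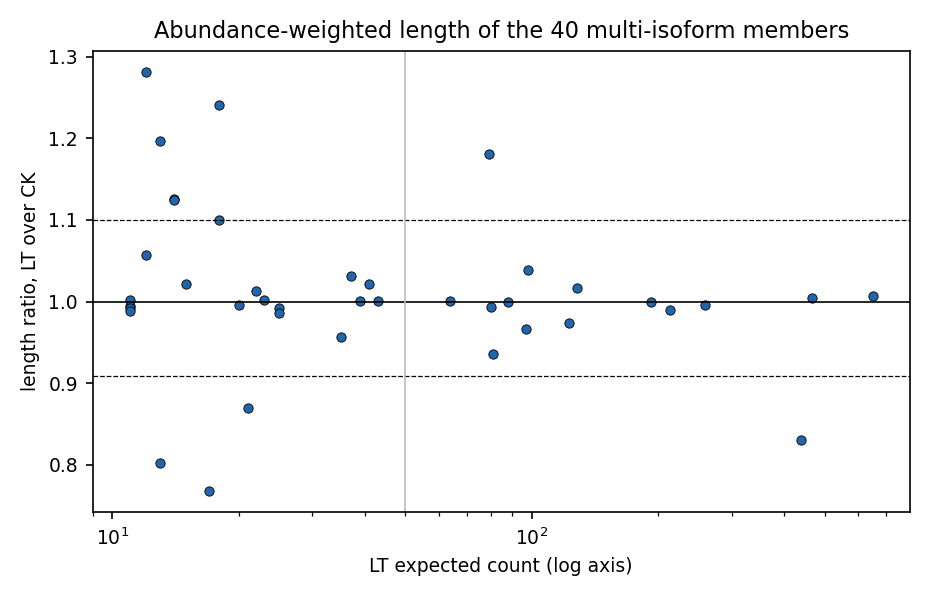
Ratio of the abundance-weighted length, LT over CK, of the 40 members with several isoforms against their expected count in LT (log axis); the solid line marks equal length, dashed lines a 1.1-fold difference and the grey line 50 LT counts. Of the 25 points left of the grey line 8 lie outside the dashed lines, and of the 15 points right of it 2 do.

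After the member with 10 isoforms came 2 members with 9 isoforms and 4 with 6. The first with 9 isoforms had 214 counts in LT against 1619 in CK, and the second had 18 in LT and 137 in CK. Of the 4 with 6 isoforms, one had 128 counts in LT against 1449 in CK and was 12.9-fold lower, and the others had 21, 18 and 14 counts in LT against 198, 142 and 136 in CK. These 7 members with 6 or more isoforms were 8.33-fold to 12.9-fold lower. The minimum of 10 counts in LT limits how large a fold the members with few CK counts can show. It left room for far larger folds in the members with 1449 and 1619 CK counts, so it does not by itself set this range.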

How the data were processed

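The deposited tables give, for every assembled gene, its expected count (an estimate of reads that need not be whole), TPM, FPKM, length and isoforms. The expected counts, the TPM and the FPKM were made by the authors, per the file headers; for the assembler, aligner and counter, names were not given in the sources used here. Per the labels' protocols, mRNA with poly-A tails was taken from 3 μg of RNA with oligo-dT beads, and the NEBNext Ultra kit was used; per the series' design text, parallel samples were mixed.

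LT and CK were joined on the gene number, since their gene and isoform lists were identical. Expected counts were rounded and scaled to the mean effective library size from the trimmed mean of M-values (TMM; edgeR 4.0.16, R 4.3.3) of these 2 libraries. The fold is (LT + 1)/(CK + 1). A 95% counting interval of a fold is exact and conditional on the 2 counts, without the added count. With 1 library per condition, intervals cover counting error only. No molecular identifiers were used to collapse reads, so copies of 1 molecule may count as separate reads and make the intervals too narrow. Folds of TPM and FPKM had 0.1 added. The rest was done in Python 3.11.15 (matplotlib 3.10.9, pandas 2.3.3, scipy 1.17.1, numpy 2.4.6). Calls and intervals were tested on simulated counts that held counting error alone. The genes lowered there had more CK counts than most members, and their drops were not close to the 8-fold limit. The simulation thus does not cover members with few counts or near that limit. DESeq2 1.42.0 size factors were an alternative, beside other scalings, minimums, fold limits and gene classes.

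The members and the features described were chosen with earlier results of these data known, and the classes of length and count and the limit of 1.1-fold in length were chosen with the values in view. The text prints the numbers of the gene with the lowest fold and of that with the highest CK level. It describes by their values the 5 lowest folds, the 5 highest CK levels, the members with 6 or more isoforms (the 5 with the most, and those tied with the last of them), the 3 longest, the 3 shortest, the 3 largest length differences, members that share a component, and the genes nearest to each limit.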

Additional observations from a re-analysis of the deposited data

How the results depend on the processing

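No paired analysis was possible because each group has 1 library. For the same reason no library could be left out. Of 21 alternative choices, 15 left the number of members within 1.5 times 114. The 5 other scalings gave 93 to 133 members, and 90 of the 114 were kept under every one of them. The number moved to 497 without a minimum in LT, to 210, 70 and 28 at fold limits of 6, 10 and 16, to 61 with the counting interval wholly beyond 8-fold, and to 74 with single-isoform genes alone. Each of these follows from how many genes the limit admits. The median log2 fold, -3.46 as reported, was -6.06 without the LT minimum, -3.05, -3.90 and -4.58 at the 3 fold limits, and -3.95 with the interval limit. The median length of 862 bases was 740.5 at a fold limit of 16, and 983 among genes of at least 500 bases. The single-isoform share was 75.4% with the interval limit and 100% by construction with single-isoform genes alone. Of 312 log2 folds of 39 described members under other scalings, added counts or no rounding, 299 stayed inside the counting interval, 13 left it and 0 changed sign, which the choice of members makes nearly certain. The upper quartile shifted the median log2 fold of all genes past both minimums to -0.16, from -0.06. Depth limits the 83 members with fewer than 100 LT counts most.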

Other observations

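An expected count that is not whole arises where a read is divided between sequences it matches. With a tolerance of 0.05, 11 members (9.65%) had a fractional count in LT and 27 (23.7%) had one in CK, against 33.8% and 24.9% of all genes tested in LT and in CK. The share in LT differed with the LT count. Among genes with 10 to below 30 LT counts, 2.13% of 47 members and 2.05% of 292 genes tested had a fractional count, and from 30 to below 100 the shares were 5.56% of 36 members and 6.50% of 2185 genes tested. From 100 to below 300 it was 2 of 20 members, against 17.9% of 4047 genes tested, from 300 to below 1000 it was 4 of 8 members, against 36.2% of 5592, and with 1000 or more 2 of 3 members, against 63.9% of 3988. Below 100 CK counts, 0 of 3 members had a fractional CK count, against 5.01% of 2614 genes tested. From 100 to below 300 CK counts it was 5 of 35 members, against 13.3% of 4685 genes tested. From 300 to below 1000 CK counts, 4 of 40 members had one, against 27.3% of 5453 genes tested. With 1000 or more, 18 of 36 members had one, against 52.9% of 3352 genes tested. Members were more often of a single isoform than the genes tested, and the parts of isoform number and of count in these shares were not tested.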
